A study of Homo sapiens with 6 samples.

Results

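The 7 aldo-keto reductase genes AKR1C1, AKR1C2, AKR1C3, AKR1B1, AKR1B10, AKR1A1 and AKR7A2 were followed in a polyA RNA sequencing comparison of SURF2 knockdown with control. They were taken by gene symbol from the 58051 gene rows of the count table, and all 7 were among the 17561 genes with enough counts to be tested. The set was chosen by the size of the AKR1C1 rise in these same libraries, so its changes are given as a description, without a test.

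The cells were U2OS, a line established from a human osteosarcoma, grown in DMEM with 10% serum. A scrambled siRNA (siSCR, 3 libraries) was the control for an siRNA against SURF2 (siSurf2, 3 libraries). Both groups were transfected on 2 occasions 49 h apart and harvested at 96 h. The series title places SURF2 in the nucleolar stress response as an antagonist of MDM2, the ubiquitin ligase that keeps p53 low. The labels give neither the siRNA sequences nor whether the 3 libraries of a group came from separate cultures. The p-values then speak only of library-to-library spread, some or all of it perhaps technical.

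Aldo-keto reductases are soluble enzymes that use NADPH to reduce aldehydes and ketones to alcohols. Their substrates include steroid hormones, prostaglandins, sugars and the reactive aldehydes that arise from oxidised lipids and from drugs. Genes of the AKR1C group and AKR1B10 are known targets of NRF2, the transcription factor that KEAP1 holds in check until cells meet oxidants or electrophiles. AKR1A1 and AKR7A2 are widely expressed enzymes that handle small aldehydes.

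SURF2, the target of the siRNA, fell in every siSurf2 library. Levels are in CPM, counts in the gene per 1e6 counts of the library, with library sizes scaled by the trimmed mean of M-values (TMM). SURF2 stood at 36.2, 35.8 and 32.3 CPM in the siSCR libraries, in the order of their numbers. In siSurf2 it stood at 3.74, 3.56 and 3.20 CPM. The 2 groups did not overlap, and the mean was 9.93-fold lower (log2 fold change -3.31 ± 0.10, SE). Libraries held 17123333 to 19688089 counts in genes. Across all genes tested, 52% passed the threshold of an adjusted p of 0.05 (edgeR quasi-likelihood test, Benjamini-Hochberg), 25.8% higher and 26.2% lower in siSurf2, and the median log2 fold change was 0.0042. Of 12 markers of osteoblast-lineage and mesenchymal cells, 8 were expressed highly enough to be tested, with VIM, SPARC and COL1A1 abundant, whereas TWIST1 had no count and COL1A2, BGLAP and SP7 had few. siSurf2 replicate 2 stood further from replicates 1 and 3 (chi-square per degree of freedom 8.76 and 10.3) than those did from each other (2.87).

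The AKR1C genes are near-copies of one another, which bears on every count assigned to them, so their sequences come first. AKR1C1 (GRCh38 chr10:4963253-4983283, plus strand), AKR1C2 (chr10:4987400-5018031, minus strand) and AKR1C3 (chr10:5035354-5107686, plus strand) are neighbours on chromosome 10. In the GENCODE 29 transcripts used here, the 972 coding bases of AKR1C1 and AKR1C2 were identical at 953 positions (98.05%). AKR1C1 shared 91.46% of its coding bases with AKR1C3 and 88.97% of its aligned coding bases with AKR1C4, the liver member of the group. The longest coding stretch that AKR1C1 and AKR1C2 have in common is the last 189 coding bases, from base 784 to base 972, stop codon included. It is printed below from GENCODE 29 for AKR1C1, AKR1C3 and AKR1C4. Capitals mark the bases that differ from AKR1C1, and the AKR1C2 stretch is the same as that of AKR1C1, letter for letter.
AKR1C1 coding bases 784 to 972: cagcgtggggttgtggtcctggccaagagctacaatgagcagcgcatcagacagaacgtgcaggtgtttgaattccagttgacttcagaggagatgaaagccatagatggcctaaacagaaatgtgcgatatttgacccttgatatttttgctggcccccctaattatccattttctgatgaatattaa
AKR1C3 coding bases 784 to 972: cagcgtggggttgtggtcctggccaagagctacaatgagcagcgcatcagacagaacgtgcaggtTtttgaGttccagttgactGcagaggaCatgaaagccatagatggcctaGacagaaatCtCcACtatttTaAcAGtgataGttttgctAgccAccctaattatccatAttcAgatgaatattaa
AKR1C4 coding bases 784 to 972: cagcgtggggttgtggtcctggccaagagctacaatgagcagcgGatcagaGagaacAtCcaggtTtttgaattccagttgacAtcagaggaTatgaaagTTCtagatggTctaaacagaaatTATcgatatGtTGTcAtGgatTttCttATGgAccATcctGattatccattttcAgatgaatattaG
A read that falls wholly inside this stretch cannot be told apart between AKR1C1 and AKR1C2, while AKR1C3 differs from them there at 18 bases and AKR1C4 at 31.

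The share of each coding sequence that occurs elsewhere was counted in windows of fixed length, as a stand-in for reads, since no source used here gives the read length. With windows of 100 bases, 21.0% of AKR1C1 coding windows and 26.7% of AKR1C2 coding windows were found unchanged in another gene. The share was 9.74% for AKR1C3, 3.52% for AKR1B10, 0.51% for AKR7A2 and 0% for AKR1B1 and AKR1A1. With windows of 50 bases it reached 54.5% for AKR1C1 and 57.2% for AKR1C2, and with 150 bases it dropped to 4.98% and 7.65%. The 50-base share was 28.4% for AKR1B10, 23.0% for AKR1C3, 10.2% for AKR7A2, 7.21% for AKR1B1 and 0% for AKR1A1. Over whole transcripts, noncoding parts included, the 150-base share was higher, at 11.3% for AKR1C1 and 21.2% for AKR1C2. For the same 2 genes it was 17.4% and 32.9% at 100 bases, and 28.7% and 52.2% at 50 bases. Counts of AKR1C1, AKR1C2 and AKR1C3 are therefore uncertain between the 3 genes to an extent set by read length and counting rule. At 100 bases AKR1B1, AKR1A1 and AKR7A2 had little or no shared sequence, but with short reads AKR1B1 and AKR7A2 would have some. AKR1B10 shares 95.03% of aligned coding bases with AKR1B15, a neighbour of low expression.

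**Figure D1:**
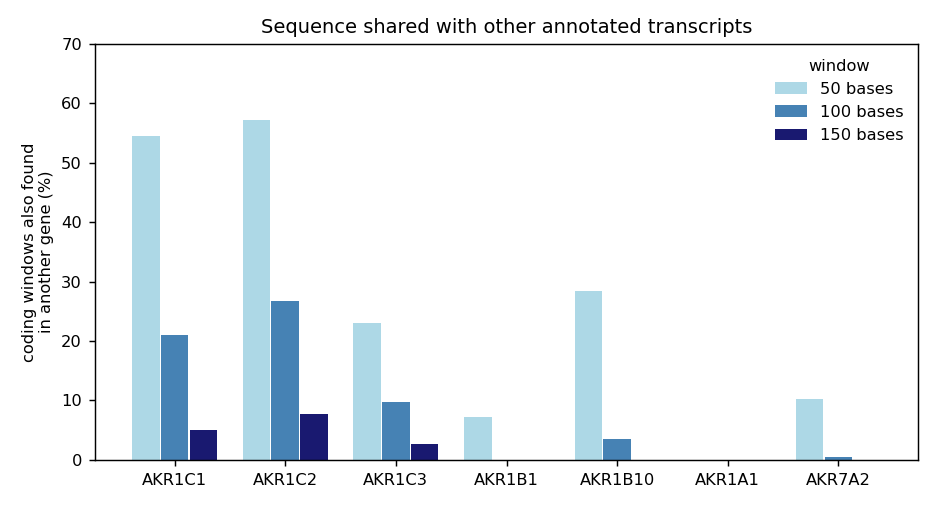
Share of coding windows (%) of each aldo-keto reductase, on the vertical axis, that occurs unchanged in a transcript of another gene, for windows of 50, 100 and 150 bases. At 100 bases AKR1C1 and AKR1C2 stand at 21.0% and 26.7%, and AKR1B1 and AKR1A1 at 0%.

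The likeness of AKR1C1 and AKR1C2 extends to their promoters. The windows of AKR1C1, AKR1C2 and AKR1C3, from 250 bases before to 50 bases after the annotated start, are printed below from RefSeq (GRCh38.p14). Each is written along its own gene. Capitals mark bases that differ from the AKR1C1 window or that lie outside the aligned part.
AKR1C1 promoter, chr10:4963165-4963464, plus strand: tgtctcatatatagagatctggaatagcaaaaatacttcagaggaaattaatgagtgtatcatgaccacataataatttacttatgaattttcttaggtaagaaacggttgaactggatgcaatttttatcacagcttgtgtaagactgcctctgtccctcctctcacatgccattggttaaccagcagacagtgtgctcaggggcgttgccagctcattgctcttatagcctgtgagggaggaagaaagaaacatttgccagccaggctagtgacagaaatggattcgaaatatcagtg
AKR1C2 promoter, chr10:5003808-5004107, minus strand: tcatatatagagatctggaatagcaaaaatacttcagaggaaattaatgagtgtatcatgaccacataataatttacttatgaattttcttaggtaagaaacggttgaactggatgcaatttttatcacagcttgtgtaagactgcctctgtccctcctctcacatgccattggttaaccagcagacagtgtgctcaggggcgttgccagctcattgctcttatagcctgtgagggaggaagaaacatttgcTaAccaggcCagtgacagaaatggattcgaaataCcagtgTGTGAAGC
AKR1C3 promoter, chr10:5094164-5094463, plus strand: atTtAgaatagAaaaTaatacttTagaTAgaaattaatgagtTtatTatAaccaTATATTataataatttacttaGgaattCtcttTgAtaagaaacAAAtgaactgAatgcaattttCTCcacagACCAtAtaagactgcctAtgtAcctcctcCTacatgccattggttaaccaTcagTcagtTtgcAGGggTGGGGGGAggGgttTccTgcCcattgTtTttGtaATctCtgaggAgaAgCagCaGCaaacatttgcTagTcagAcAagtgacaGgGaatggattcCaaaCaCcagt
The AKR1C1 and AKR1C2 windows were identical at 288 of 292 aligned bases (98.6%), and the AKR1C3 window printed matched AKR1C1 at 225 of 283 (79.5%). RefSeq has a further AKR1C3 window, at chr10:5048531-5048830, which matched AKR1C1 at 227 of 291 (78%). RefSeq windows were found for 6 of the 7 genes, all but AKR1B10. They were searched on both strands for the core of the antioxidant response element, TGACNNNGC, to which NRF2 binds, and for the AP-1 site, TGACTCA. The element core occurred in 13.3% of the 35116 promoter windows of the same length in RefSeq, and the AP-1 site in 4.95%. Neither was found in the windows of AKR1C1, AKR1C2, AKR1C3, AKR1B1 or AKR1A1. AKR7A2 held 3 matches to the element core, the nearest starting 95 bases before 1 of its annotated starts, and no AP-1 site. A match is a match of letters only, and enhancers farther away were not searched.

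AKR1C1, which inactivates progesterone, went from barely counted to moderate. The siSCR libraries 1, 2 and 3 held 10, 3 and 9 raw counts, and the siSurf2 libraries 177, 190 and 266. In CPM, normalised by the trimmed mean of M-values (TMM), that was 0.595, 0.160 and 0.462 against 9.73, 9.81 and 13.3. Every siSurf2 library lay far above every siSCR library, and siSurf2 replicate 3 was the highest. The mean rose from 0.406 ± 0.223 to 10.9 ± 2.03 CPM (SD, n = 3 each), a ratio of 27.0 and a log2 fold change of 4.75 ± 0.25 (SE). This was the largest rise in log2 fold change among the 17561 genes tested, though 0.063% of them changed by more when falls are counted, and it is the value on which the set was selected. With 22 counts in all 3 siSCR libraries together against 633 in siSurf2, counting error alone gives the ratio of summed counts (28.0) a 95% interval of 18.3 to 45.0.

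AKR1C2, an enzyme that reduces dihydrotestosterone to a weak androgen, followed at a lower level. The siSCR libraries had 6, 1 and 2 counts and the siSurf2 libraries 33, 25 and 46, or 0.357, 0.0535 and 0.103 CPM against 1.81, 1.29 and 2.30 CPM. The groups did not overlap. Mean CPM went from 0.171 ± 0.163 to 1.80 ± 0.504, with a log2 fold change of 3.41 ± 0.47 (SE), the 15th largest rise of all genes. Because the control level rests on 9 counts in all, the ratio of summed counts, 11.2, has a 95% counting interval of 5.69 to 25.3. siSCR replicate 1, which held 6 of those 9 counts, moved the value most: without it the log2 fold change was 4.40.

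AKR1C3, which makes testosterone from androstenedione and also forms prostaglandin F, had a higher starting level. It stood at 2.32, 2.19 and 2.93 CPM in siSCR and at 9.73, 10.9 and 14.4 CPM in siSurf2. The lowest siSurf2 library was 3.33-fold above the highest siSCR library. The mean went from 2.48 ± 0.392 to 11.7 ± 2.45 CPM, 4.72-fold, with a log2 fold change of 2.23 ± 0.17 (SE). AKR1C3 thus rose from the highest base of the 3 AKR1C genes and by the smallest factor.

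The make-up of the AKR1C counts is given as a description, since AKR1C1 was chosen for its rise in these libraries. AKR1C1 made up 18.2%, 6.67% and 13.2% of the summed AKR1C1, AKR1C2 and AKR1C3 counts in the siSCR libraries, from totals of 55, 45 and 68 counts. In the siSurf2 libraries it made up 45.7%, 44.5% and 44.3%, from totals of 387, 427 and 601. The highest siSCR share had a 95% Wilson interval of 10.2% to 30.3%, and the lowest siSurf2 share one of 40.3% to 48.3%. These intervals cover counting error only and are no test of a shift. AKR1C3 fell from 70.9%, 91.1% and 83.8% to 45.7%, 49.6% and 48.1% of the same sums. AKR1C2 stayed a minor part, at 2.22% to 10.9% in siSCR and 5.85% to 8.53% in siSurf2. Summed with AKR1C4 to a single feature before the fit, so that the split of counted reads between them no longer matters, the AKR1C rows had a log2 fold change of 2.99 ± 0.15 (SE). Reads dropped for matching several genes are not recovered by the sum.

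**Figure D2:**
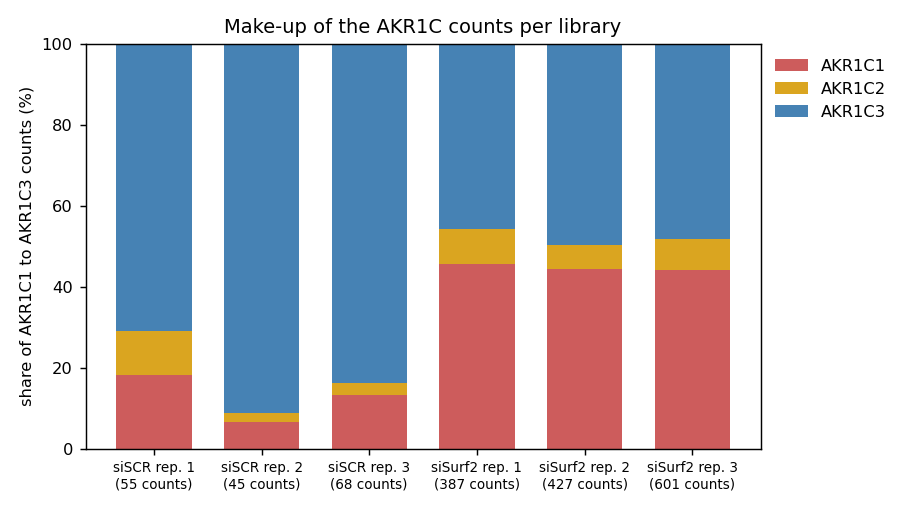
Stacked bars give the share (%) of AKR1C1, AKR1C2 and AKR1C3 in their summed raw counts for each of the 6 libraries, with the total count under each bar. AKR1C1 takes 6.67% to 18.2% in siSCR and 44.3% to 45.7% in siSurf2.

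AKR1B1 and AKR1B10 lie next to each other on chromosome 7 (chr7:134442350-134459284, minus strand, and chr7:134527592-134541408, plus strand) but are far less alike than the AKR1C genes, with 77.69% identity over aligned coding bases. AKR1B1 is aldose reductase, the enzyme that turns glucose into sorbitol in the polyol pathway. It was abundant throughout, at 172.9, 159.6 and 156.3 CPM in siSCR and 300.5, 308.2 and 287.6 CPM in siSurf2. The groups were well apart and the libraries within each close together. The mean went from 162.9 ± 8.78 to 298.8 ± 10.4 CPM, a ratio of 1.83 and a log2 fold change of 0.88 ± 0.05 (SE). In CPM this is the largest absolute gain of the 7 genes, although 11.4% of all genes tested had a log2 fold change of larger size in either direction.

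AKR1B10 reduces retinal and lipid aldehydes and is best known from gut and from tumours. It stood at 1.79, 2.62 and 1.44 CPM in siSCR and at 9.68, 8.00 and 10.6 CPM in siSurf2, again without overlap. The mean went from 1.95 ± 0.608 to 9.44 ± 1.34 CPM, 4.85-fold, with a log2 fold change of 2.27 ± 0.18 (SE). That is close to the value of AKR1C3, and the 2 genes also had similar levels. AKR1B15, the neighbour most like AKR1B10, had 2 counts in all siSCR libraries and 32 in all siSurf2 libraries. The ratio of 15.6 has a 95% counting interval of 3.97 to 134, and AKR1B15 was too sparse to be tested.

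AKR1A1 and AKR7A2 showed little change. AKR1A1 (chr1:45550543-45570049, plus strand) reduces glucuronate and many other aldehydes, and stood at 140.5, 134.8 and 138.1 CPM in siSCR and 122.2, 133.1 and 123.0 CPM in siSurf2. The groups did not overlap, but the highest siSurf2 library came close to the lowest siSCR library. The mean went from 137.8 ± 2.84 to 126.1 ± 6.07 CPM, with a log2 fold change of -0.13 ± 0.05 (SE). AKR7A2 (chr1:19303965-19312146, minus strand) reduces succinic semialdehyde and aflatoxin aldehydes. It stood at 37.0, 37.2 and 36.8 CPM in siSCR and at 35.6, 37.1 and 33.8 CPM in siSurf2. Here the groups overlapped, and the log2 fold change was -0.06 ± 0.07 (SE).

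**Figure D3:**
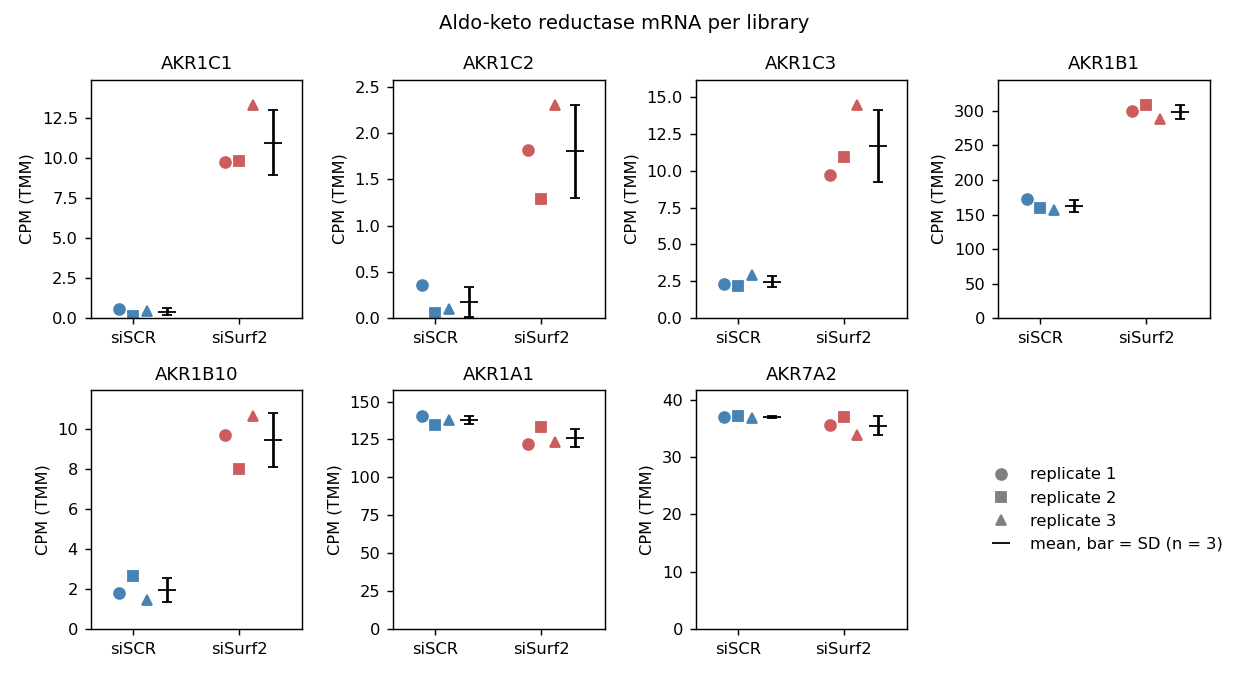
Level of each gene in each library, in TMM-normalised CPM on a linear axis from 0, with its own scale per panel. Points are libraries, and bars show the mean and SD of 3. AKR1C1 goes from 0.160 to 0.595 CPM in siSCR to between 9.73 and 13.3 CPM in siSurf2, while the AKR7A2 points of the groups overlap near 37 CPM.

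Of the 7 genes, 5 passed the threshold as higher, AKR1A1 as lower and AKR7A2 in neither direction, against the 25.8% and 26.2% of all genes given above. The call of AKR1A1 was lost in 9 of 16 other settings. The groups of 3 libraries did not overlap in 6 of the 7, where 57.3% of all genes tested showed no overlap. The contrast chose the genes, and no more is read from these counts. siSurf2 replicate 3 was the highest of the 6 libraries for 4 genes, AKR1C1, AKR1C2, AKR1C3 and AKR1B10. Whether a higher level came from more mRNA in each cell or from more cells that express the gene cannot be told apart in bulk RNA.

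**Figure D4:**
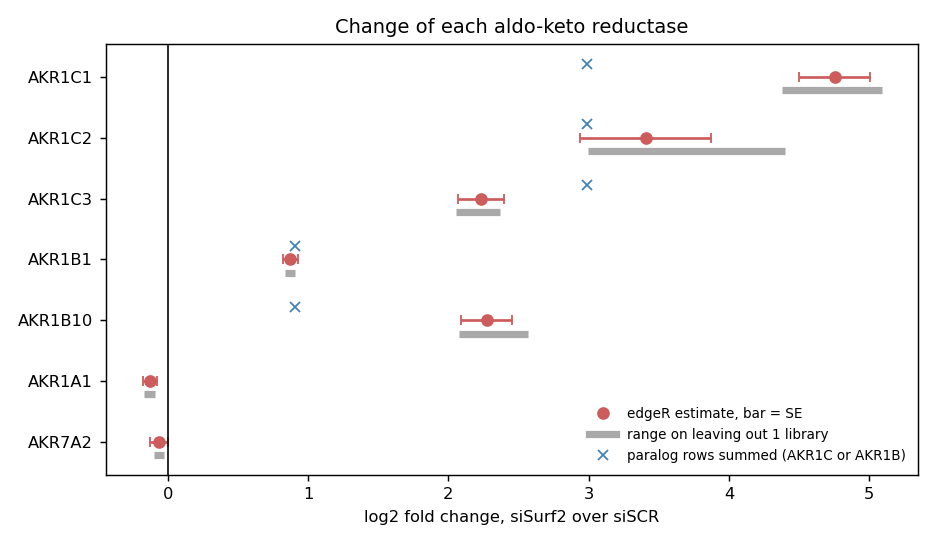
Log2 fold change of each gene (siSurf2 over siSCR, horizontal axis). Points and bars are the estimate and its SE, grey bands the range when 1 library is left out, and crosses the value with the paralog rows summed. AKR1C1 ranges from 4.38 to 5.09 and AKR1C2 from 3.00 to 4.40, and the summed AKR1C rows lie at 2.99.

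Levels of different genes were compared per kilobase of coding sequence, in CPM per kb. Coding sequences of the 7 genes span 951 to 1080 bases, so this scale does not correct for the length of whole transcripts. In siSCR the order was AKR1B1 (171.3 ± 9.23), AKR1A1 (140.9 ± 2.91), AKR7A2 (34.3 ± 0.169), AKR1C3 (2.55 ± 0.403), AKR1B10 (2.05 ± 0.64), AKR1C1 (0.418 ± 0.229) and AKR1C2 (0.176 ± 0.168). The ranges of AKR1C3 and AKR1B10 overlapped and their order changed between siSCR libraries, so this pair cannot be ordered. The ranges of AKR1C1 and AKR1C2 overlapped as well. Within each siSCR library AKR1C1 was the higher of these, but on only 22 and 9 counts in all, so their order stays uncertain. In siSurf2 the top 3 kept their order, with AKR1B1 at 314.1 ± 10.9, AKR1A1 at 129.0 ± 6.21 and AKR7A2 at 32.8 ± 1.52 CPM per kb. AKR1C3 (12.0 ± 2.52), AKR1C1 (11.3 ± 2.09) and AKR1B10 (9.93 ± 1.41) then overlapped with each other, and AKR1C2 (1.85 ± 0.519) stayed below. On this scale AKR1C1 moved from the range of AKR1C2 into that of AKR1C3 and AKR1B10. Per kilobase of whole transcript it did not: in siSurf2 AKR1C1 was at 1.63 ± 0.303 CPM per kb, AKR1C3 at 6.48 ± 1.35 and AKR1B10 at 5.94 ± 0.841. The annotated AKR1C1 transcript is 6705 bases long and that of AKR1C3 1807, so the place of AKR1C1 depends on which length is used.

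The other aldo-keto reductase rows of the table were sparse. Of 26, 20 had a count in some library and 5 passed the filter on low counts, when the potassium channel beta subunits of the same fold are included. AKR1E2, which lies upstream of AKR1C1, went from 1.32 ± 0.523 to 2.25 ± 0.143 CPM (adjusted p = 0.017, edgeR quasi-likelihood test). The pseudogene AKR1C7P went from 0.794 ± 0.38 to 1.41 ± 0.103 CPM (adjusted p = 0.04). KCNAB1, a channel subunit, went from 1.62 ± 0.275 down to 0.935 ± 0.315 CPM (adjusted p = 0.029). Of the 5 rows tested, 2 thus passed as higher and 1 as lower, beside 25.8% and 26.2% of all genes tested. No more is read from so few genes. These calls did not hold in every setting. Fewer than the 2 passed as higher when siSCR replicate 1 or 3 was left out (0 each), when any 1 siSurf2 library was left out (1 each) and with DESeq2 (1). With ERCC library sizes (scaling by added RNAs of known amount) 0 passed in either direction. None passed as lower when siSCR replicate 2 or 3 or siSurf2 replicate 1 or 2 was left out, without the filter on low counts, or with DESeq2. KCNAB2 and KCNAB3 did not pass the threshold. AKR1C4 had 2 counts in siSCR and 8 in siSurf2, a ratio of 3.89 with a 95% counting interval of 0.776 to 37.6, and AKR1C8 had 6 and 8.

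The nearest named genes outside the AKR1C locus were read as well. KLF6, a zinc finger transcription factor on the side of AKR1C1, stood at 62.4 CPM in siSCR and 62.8 CPM in siSurf2 (log2 fold change 0.01). PITRM1, a mitochondrial peptidase beyond it, rose from 31.9 to 39.2 CPM, or by 0.30 on the log2 scale (edgeR quasi-likelihood test, adjusted p = 0.00055). On the other side, UCN3 had no count in any library and TUBAL3 had 5 counts in siSCR and 3 in siSurf2. Antisense and small RNA genes annotated across AKR1C2 and AKR1C3 had 0 counts in every library.

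The mRNAs of NRF2 itself and of several of its regulators fell. The list of NRF2 regulators held 11 genes, for NRF2 itself, proteins that control it, small MAF proteins and the related factor NFE2L1. Of these, 7 passed as lower and 4 did not pass (1 passed as higher without siSurf2 replicate 1 and 1 with upper-quartile factors). Over all genes 26.2% passed as lower. The list had a median log2 fold change of -0.19, against 0.0042 for all genes. NFE2L2, which encodes NRF2, fell from 81.1 ± 6.15 to 65.2 ± 4.55 CPM (adjusted p = 0.00011). KEAP1, its inhibitor, fell from 93.4 ± 5.86 to 76.5 ± 2.06 CPM (adjusted p = 9.6e-05). SQSTM1, the autophagy receptor that binds KEAP1, fell from 474.5 ± 29.6 to 353.8 ± 20.9 CPM (adjusted p = 1.5e-07). The small MAF protein MAFF (-0.82 ± 0.08, SE) and the related factor NFE2L1 (-0.38 ± 0.05) also fell on the log2 scale. BACH1, a repressor at the same elements, stood at 67.4 ± 5.41 and 71.0 ± 5.34 CPM and did not pass.

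Of 42 known NRF2 targets outside the aldo-keto reductases, 39 were tested, and 26 passed as higher, 3 as lower and 10 did not pass. Over all genes 25.8% passed as higher and 26.2% as lower. The list's median log2 fold change was 0.25, against 0.0042 for all genes. NQO1, the quinone reductase, rose from 106.2 ± 4.09 to 232.4 ± 7.28 CPM (2.19-fold, adjusted p = 1.2e-16). SLC7A11, the cystine importer, rose 1.99-fold (adjusted p = 1e-13). Not all targets moved that way: UGDH, PIR and SRXN1 fell, by 0.24, 0.24 and 0.25 on the log2 scale. The list was drawn up with earlier results of these libraries known, so its direction is no independent evidence.

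Enzymes that share substrates with AKR1C1, AKR1C2 and AKR1C3 were read beside them. Of 17 other steroid enzymes tested, 4 passed as higher, 3 as lower and 10 did not pass (median log2 fold change 0.09), against 25.8% higher and 26.2% lower over all genes. HSD17B3, which like AKR1C3 makes testosterone from androstenedione, rose from 0.834 ± 0.495 to 7.07 ± 0.682 CPM, 8.48-fold (adjusted p = 4.2e-11). HSD17B4, a peroxisomal enzyme, rose 1.31-fold and SRD5A1, a steroid reductase that forms dihydrotestosterone, 1.52-fold. CYP11A1, which starts steroid synthesis from cholesterol, fell from 3.26 ± 0.607 to 1.70 ± 0.0497 CPM (adjusted p = 0.00067). HSD17B8 and HSD17B7 also fell, by 0.64 and 0.39 on the log2 scale. Of 17 prostaglandin genes tested, 8 passed as higher, 3 as lower and 6 did not pass (median log2 fold change 0.24), beside the same 25.8% and 26.2% over all genes. PLA2G4A, the phospholipase that releases arachidonic acid, rose from 2.76 ± 0.49 to 8.30 ± 0.495 CPM (3.01-fold, adjusted p = 1.7e-09). PTGFRN, a regulator of the prostaglandin F receptor, rose 1.62-fold and PTGR1, a prostaglandin reductase that also stands in the NRF2 list, 1.55-fold. PTGES, a prostaglandin E synthase, fell from 6.94 ± 1.15 to 2.80 ± 0.7 CPM (adjusted p = 5.2e-07), and PTGES3 and PRXL2B fell by 0.27 and 0.23 on the log2 scale.

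Of 32 aldehyde dehydrogenases and carbonyl reductases tested, 11 passed as higher, 8 as lower and 13 did not pass, with a median log2 fold change of 0.11. The shares over all genes were 25.8% higher and 26.2% lower, so the list lay near the background. ALDH3B1, which oxidises lipid aldehydes, rose from 87.8 ± 2.88 to 166.2 ± 7.42 CPM (1.89-fold, adjusted p = 2.2e-14). ALDH3A2, the fatty aldehyde dehydrogenase, rose 1.55-fold and ALDH6A1, of valine breakdown, 1.44-fold. ALDH9A1, of carnitine synthesis, fell from 84.8 ± 1.42 to 47.0 ± 0.583 CPM (adjusted p = 3e-13). ALDH5A1, which oxidises the succinic semialdehyde that AKR7A2 reduces, fell from 16.3 ± 0.267 to 8.97 ± 1.08 CPM (adjusted p = 5.7e-08). DHRS2 fell from 1828 ± 58.2 to 1390.2 ± 23.3 CPM (adjusted p = 5.5e-08).

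The polyol, glucuronate and glyoxalase genes around AKR1B1 and AKR1A1 had 2 higher, 6 lower and 10 not past the threshold of 18 tested (median log2 fold change -0.02), near the 25.8% and 26.2% of all genes in its lower calls and below them in its higher calls. SORD, which takes the sorbitol made by AKR1B1 on to fructose, fell from 98.9 ± 1.46 to 82.8 ± 2.36 CPM (adjusted p = 0.00015). KHK, the fructose kinase, rose from 15.4 ± 1.41 to 20.0 ± 0.479 CPM (adjusted p = 0.0005). The osmolyte importers went opposite ways, with SLC6A6, for taurine, 1.44-fold higher and SLC5A3, for myo-inositol, 1.48-fold lower. UGP2, which makes UDP-glucose, fell 1.55-fold. With library sizes set by the ERCC spike-ins, the counts of all these lists shrank, as did those over all genes. Of the 17561 genes tested, 802 then passed as higher and 825 as lower, against 4535 and 4596 in the main fit. Of the NRF2 targets 9 then passed as higher and 0 as lower, of the NRF2 regulators 1 as lower, of the steroid enzymes 1 and 0, of the prostaglandin genes 3 and 1, of the carbonyl enzymes 1 and 2, and of the polyol group 0 and 0.

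**Figure D5:**
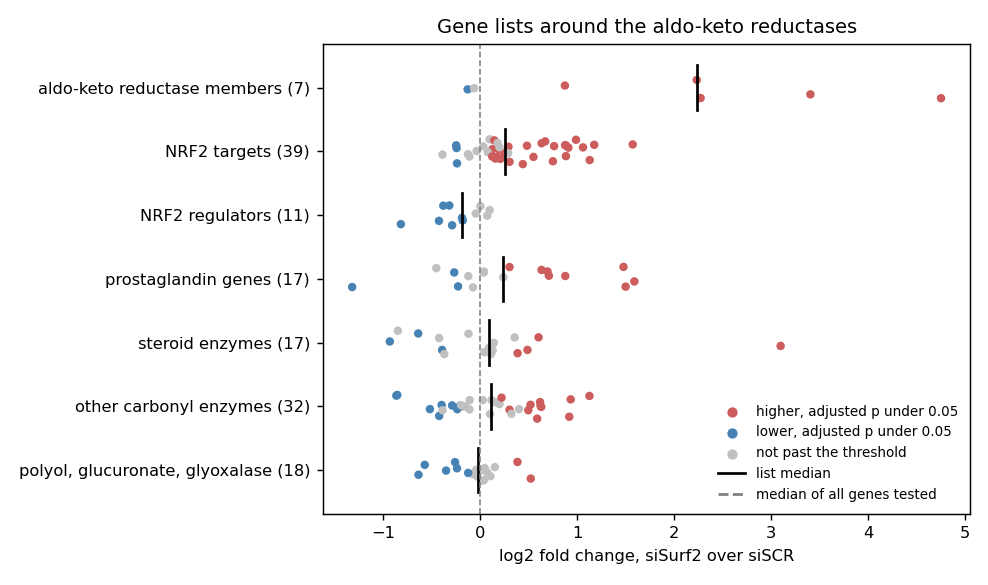
Each point is a gene tested, placed by its log2 fold change (siSurf2 over siSCR) and coloured by its call, with the number tested after each list's name, the list median as a black line and the median of all genes dashed. The NRF2 targets lie mostly to the right (median 0.25) and the NRF2 regulators to the left (-0.19), and the members were chosen on this contrast.

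Markers of other cells that express aldo-keto reductases were checked in the same libraries. Beside the calls given below, 25.8% of all genes tested passed as higher and 26.2% as lower. Of 13 hepatocyte markers, 7 had no count in any library, ALB among them. SERPINA1 and HNF4A were high enough to be tested and both were higher in siSurf2, SERPINA1 going from 34.5 ± 1.14 to 65.4 ± 1.83 CPM and HNF4A, named here after its value was seen, from 0.223 to 0.948 CPM. The summed level of the 13 was 33.5 to 35.9 CPM in siSCR and 64.5 to 67.9 CPM in siSurf2. Nearly all of that sum was SERPINA1, at 33.3 to 35.5 CPM in siSCR and 63.3 to 66.9 CPM in siSurf2. Of 10 epithelial markers 4 were tested. CLDN4 (2.11-fold) and EPCAM (1.98-fold) rose, CDH1 fell 6.60-fold, and GRHL2 had no count. The epithelial sum was 23.7 to 27.9 CPM in siSCR and 44.5 to 45.6 CPM in siSurf2. Most of it was CLDN4, with means of 16.3 and 34.3 CPM. Of 10 blood and endothelial markers only PECAM1 was tested and it fell 2.56-fold, with sums of 1.93 to 2.62 and 1.14 to 1.75 CPM, and CD3E, LYZ and HBB were at 0. The osteoblast-lineage list had 4 higher (PRRX1, SPARC and COL1A1 among them), 1 lower (ALPL, 4.24-fold) and 3 not past the threshold. Its sum was 3171 to 3226 CPM in siSCR and 3516 to 3861 CPM in siSurf2. The part of these shifts in the aldo-keto reductase values was not tested.

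The genes whose pattern over the 6 libraries was most like that of AKR1C1 were FTH1, STAT5B, STOM, BLOC1S2, GPRC5C and PAQR8, each with a Pearson r of 0.999 on log2(CPM + 0.5). Such a value is common here: 1648 of 13648 protein-coding genes (12.1%) had an r above 0.95. FTH1, the ferritin heavy chain and also in the NRF2 list, went from 1734 ± 125.9 to 3186 ± 173.4 CPM. It has annotated pseudogenes, whose part in its count was not tested. PAQR8, a membrane progesterone receptor, went from 4.32 ± 0.356 to 12.9 ± 0.639 CPM, and the orphan receptor GPRC5C from 14.2 ± 0.993 to 32.5 ± 1.17 CPM. Within the family, r with AKR1C1 was 0.989 for AKR1C3, 0.985 for AKR1B1, 0.980 for AKR1C2 and 0.953 for AKR1B10. It was -0.81 for AKR1A1 and -0.67 for AKR7A2. These correlations describe 6 libraries in 2 groups and carry no test.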

How the data were processed

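PolyA RNA of 6 libraries was sequenced. The authors deposited raw counts per gene. Per the submitters' processing notes, STAR 2.5.2b and fastp 0.23.1 were used with GRCh38. With counter, annotation, strand and read length not given in the sources used here, how reads shared by paralogs were assigned is unknown. Genes were filtered (filterByExpr, minimum count 10, minimum total 15), normalised by TMM and tested by edgeR 4.0.16 in R 4.3.3 (robust quasi-likelihood F-test, group term only, Benjamini-Hochberg over 17561 genes, threshold 0.05). The 92 ERCC rows, at 1.12% to 1.72% of a library's counts, entered neither library sizes nor tests. Values are mean ± SD over 3 libraries. The SE of a log2 fold change was derived from the test. It is the size of the fitted log2 coefficient, before edgeR's shrinkage, divided by the square root of its F statistic. The log2 fold changes printed are after that shrinkage, so the SE is approximate for sparse genes.

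The members and lists were chosen with earlier results of these data known. Named genes were the members, the other family rows, NFE2L2, KEAP1, BACH1 and SQSTM1, up to 3 genes per direction and list by smallest adjusted p (mean log2 CPM of at least 0), the 6 genes most like AKR1C1 and the flanks of its locus. A gene that this rule takes is not reported here. Alternatives were other size factors, ERCC library sizes, no filter or 1 CPM, DESeq2 1.42.0, limma-voom (limma 3.58.1), a non-robust prior, the replicate number as a block, each library left out, and summed paralog rows. Coordinates and coding sequences are from GENCODE 29, promoters from RefSeq.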

Additional observations from a re-analysis of the deposited data

How the results depend on the processing

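The members were chosen on this contrast, so their values under 16 other settings, which reuse the same libraries, are a description and no support. All 7 kept their sign in each of them. The call of AKR1A1 was lost in 9. AKR7A2 passed in 0 of 16, and was at -0.11 with ERCC library sizes. On leaving out each library, the log2 fold change ranged from 4.38 (without siSCR replicate 2) to 5.09 (without siSCR replicate 1) for AKR1C1, from 3.00 to 4.40 (the same libraries) for AKR1C2, and from 2.08 (without siSCR replicate 3) to 2.56 (without siSCR replicate 2) for AKR1B10. Summing the AKR1C rows gave 2.99 for AKR1C1, AKR1C2 and AKR1C3 alike, and summing the AKR1B rows gave 0.91 for AKR1B10, a sum dominated by AKR1B1 by its construction. With ERCC library sizes, 802 genes were called higher and 825 lower, against 4535 and 4596; the cause was not tested. AKR1E2, AKR1C7P and KCNAB1, the other family genes called, had 44 to 130 counts per group, and the part of depth in their calls was not tested.

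Deviations from the group means had r = 0.0037, -0.12 and -0.029 between same-numbered libraries. Between libraries of different number r ran from -0.126 to 0.165. The labels give no pairing, and with 3 libraries per group these values cannot show whether the libraries were paired. With the number as a replicate block, 4478 genes were called higher and 4550 lower, and AKR1C1 was at 4.76.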
